A study of Mus musculus with 6 samples.

Results

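The unfolded protein response and the integrated stress response were examined through 32 member genes in mouse AE9a leukemia cells. The members were found by their gene symbols among the 23608 rows of the count table, and all 32 were present and passed the filter on low counts, together with 11614 genes in all. The table held 6 RNA-seq libraries of GFP+ Lin- c-Kit+ cells sorted from spleen, 3 from recipients given oil (Usp18+/f) and 3 from recipients given tamoxifen (Usp18+/D). Both groups carried the AE9a oncogene, a truncated AML1-ETO fusion delivered by a GFP retrovirus, 1 floxed copy of Usp18, and a tamoxifen-activated Cre recombinase driven by the ubiquitin C promoter. The cells came from secondary transplants into irradiated adult C57BL/6 hosts, injections began once the hosts were sick, and cells were collected on day 3 after the first injection. Because tamoxifen was given only to the Usp18+/D group, loss of the allele and exposure to the drug cannot be told apart. Members were grouped by role into 4 sensors, 3 transcription factors, 13 chaperones and folding enzymes, 4 genes of protein degradation, 4 further targets of ATF4, and 4 enzymes of serine and one-carbon metabolism.

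The endoplasmic reticulum folds secreted and membrane proteins, and a surplus of unfolded protein there is sensed by IRE1 (Ern1), PERK (Eif2ak3) and ATF6. IRE1 splices the mRNA of Xbp1, ATF6 is cut to release a transcription factor, and both lead to transcription of chaperones and degradation genes. PERK and GCN2 (Eif2ak4), which senses missing amino acids, phosphorylate the initiation factor eIF2, which lowers protein synthesis and favors translation of ATF4, an activator of amino acid synthesis and transport genes. Much of this signaling runs through protein modification, splicing and translation. Gene counts of RNA do not measure these steps, and spliced and unspliced Xbp1 were counted together.

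The promoters were searched for the sequence elements of these pathways. The members were chosen as genes of the same pathways, so finding these elements in them is not independent evidence. RefSeq promoter windows (GRCm38.p6, 250 bases before to 50 bases after each start) were matched by symbol for 29 members; Atf6, Manf and Hyou1 had no entry. The endoplasmic reticulum stress element (ERSE) consists of the letters CCAAT and CCACG separated by 9 bases, and is the element through which ATF6 and XBP1 are known to act. An ERSE on either strand was found in the promoters of 8 members, or 27.6% of the 29, and in 0.119% of all 32851 promoters of the same length. The 9 sites found are shown 5′ to 3′ along the element, with its fixed letters in capitals. They are set side by side because the bases between the fixed letters differ among the members.

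Hspa5: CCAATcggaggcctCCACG
Calr: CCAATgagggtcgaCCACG
Hsp90b1, first site: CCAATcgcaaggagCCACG
Hsp90b1, second site: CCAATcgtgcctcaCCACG
Canx: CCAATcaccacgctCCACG
Pdia6: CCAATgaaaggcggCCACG
Dnajc3: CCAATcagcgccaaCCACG
Creld2: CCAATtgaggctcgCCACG
Syvn1: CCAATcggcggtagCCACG

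Each site lay upstream of the start. The nearest began 44 bases before it in Syvn1 and the farthest 212 bases before it in Hsp90b1, the only member with 2 exact sites. Copies with a change in the fixed letters were not sought. The Hspa5 site began 65 bases before the start. The variant ERSE-II, with ATTGG and CCACG separated by 1 base and known for Herpud1, was found in Herpud1 alone among the members and in 0.0365% of all promoters. The XBP1 element TGACGTGG was found in 0 members and in 0.676% of all promoters. The letters TGATGNAA, a form of the element bound by ATF4, were found on either strand in Asns, Chac1, Herpud1 and Trib3, or 13.8% of the 29 members, and in 3.97% of all promoters. Members were counted per gene and the background per promoter. Counted per gene, the shares of all 27025 genes were 0.137% for the ERSE and 0.0444% for ERSE-II. They were 0.714% for TGACGTGG and 4.51% for TGATGNAA. Matches of this kind describe letters in a window and are not evidence of binding.

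The 250 bases upstream of the start are given for 4 members whose values are described below: Hspa5 and Hsp90b1, which carried an ERSE and had low values in tamoxifen 1 and 2, Dnajc3, which carried an ERSE and did not, and Asns, which carried the ATF4 element. Capitals mark the fixed letters of these elements on either strand. The windows are chr2:34771840-34772089 on the plus strand for Hspa5, chr10:86705445-86705694 on the minus strand for Hsp90b1, chr14:118937682-118937931 on the plus strand for Dnajc3 and chr6:7693210-7693459 on the minus strand for Asns.

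Hspa5: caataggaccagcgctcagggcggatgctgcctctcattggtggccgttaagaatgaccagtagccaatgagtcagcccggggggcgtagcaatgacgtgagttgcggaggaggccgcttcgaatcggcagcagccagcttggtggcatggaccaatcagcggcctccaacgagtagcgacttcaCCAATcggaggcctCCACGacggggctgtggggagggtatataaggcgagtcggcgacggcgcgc
Hsp90b1: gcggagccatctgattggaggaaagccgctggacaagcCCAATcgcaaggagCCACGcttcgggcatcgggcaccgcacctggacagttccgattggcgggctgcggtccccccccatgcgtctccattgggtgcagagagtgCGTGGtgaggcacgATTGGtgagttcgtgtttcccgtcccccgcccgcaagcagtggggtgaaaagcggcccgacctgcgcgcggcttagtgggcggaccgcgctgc
Dnajc3: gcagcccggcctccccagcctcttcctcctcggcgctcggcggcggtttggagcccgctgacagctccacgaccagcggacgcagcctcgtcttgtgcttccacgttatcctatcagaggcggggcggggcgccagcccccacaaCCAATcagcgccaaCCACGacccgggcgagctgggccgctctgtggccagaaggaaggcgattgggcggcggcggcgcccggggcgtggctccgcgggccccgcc
Asns: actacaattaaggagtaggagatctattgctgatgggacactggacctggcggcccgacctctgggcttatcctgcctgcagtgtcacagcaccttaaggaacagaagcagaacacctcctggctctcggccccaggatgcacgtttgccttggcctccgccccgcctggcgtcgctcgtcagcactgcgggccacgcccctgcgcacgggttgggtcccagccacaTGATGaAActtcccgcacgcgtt

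Libraries are named by the numbers in the count table. They held 17118964 to 20741399 counts, and levels are in CPM, that is, gene counts scaled by the TMM-adjusted size of each library. A count of 3 was worth 0.145 to 0.177 CPM, whereas the lowest member value was 26.5 counts. Usp18, the targeted gene, went against the label: oil 1, 3 and 4 held 9.12, 11.0 and 11.2 CPM, whereas tamoxifen 1, 2 and 4 held 15.1, 28.0 and 19.4 CPM, and every tamoxifen value lay above the oil values (means 20.9 and 10.4 CPM). It missed the threshold in edgeR (adjusted p = 0.0739) and passed it as higher in DESeq2 (adjusted p = 0.00199) and in edgeR without tamoxifen 4 (adjusted p = 0.00654). Directions below are therefore those of the libraries labelled tamoxifen against those labelled oil. The library tamoxifen 4 stood apart from its group. Its log2 CPM correlated with the oil libraries at r = 0.982 to 0.985 across genes and with tamoxifen 1 and 2 at 0.973 and 0.970. Tamoxifen 1 and 2 correlated with each other at 0.987. They correlated with the oil libraries at 0.952 to 0.969, so tamoxifen 4 was nearer to them than any oil library was. The sorted population expressed Kit at 439 to 781 CPM, whereas Ptprc, the pan-leukocyte CD45 gene, did not exceed 0.709 CPM in any library.

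Across all 6 libraries, 0 of the 32 members were called higher and 0 lower at an edgeR quasi-likelihood adjusted p below 0.05, where 1.75% of all tested genes were called higher and 0.267% lower. The lowest adjusted p among the members was 0.138, for Xbp1. Only Xbp1 (3.12% of the members) had an unadjusted edgeR p below 0.05, against 20.6% of all genes. The DESeq2 Wald test also called 0 members, where it called 8.13% of all genes, and gave 1 member an unadjusted p below 0.05. The log2 fold change was positive for 12 members and negative for 20, with a median of -0.22 where the median of all genes was 0.00. The lowest and highest CPM of the groups left a gap for 1 member with higher values in tamoxifen (Xbp1) and 2 with lower values (Atf4 and Edem1), together 9.38% of the members, where 13.3% of all genes had ranges apart and higher and 11.8% apart and lower.

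**Figure D1:**
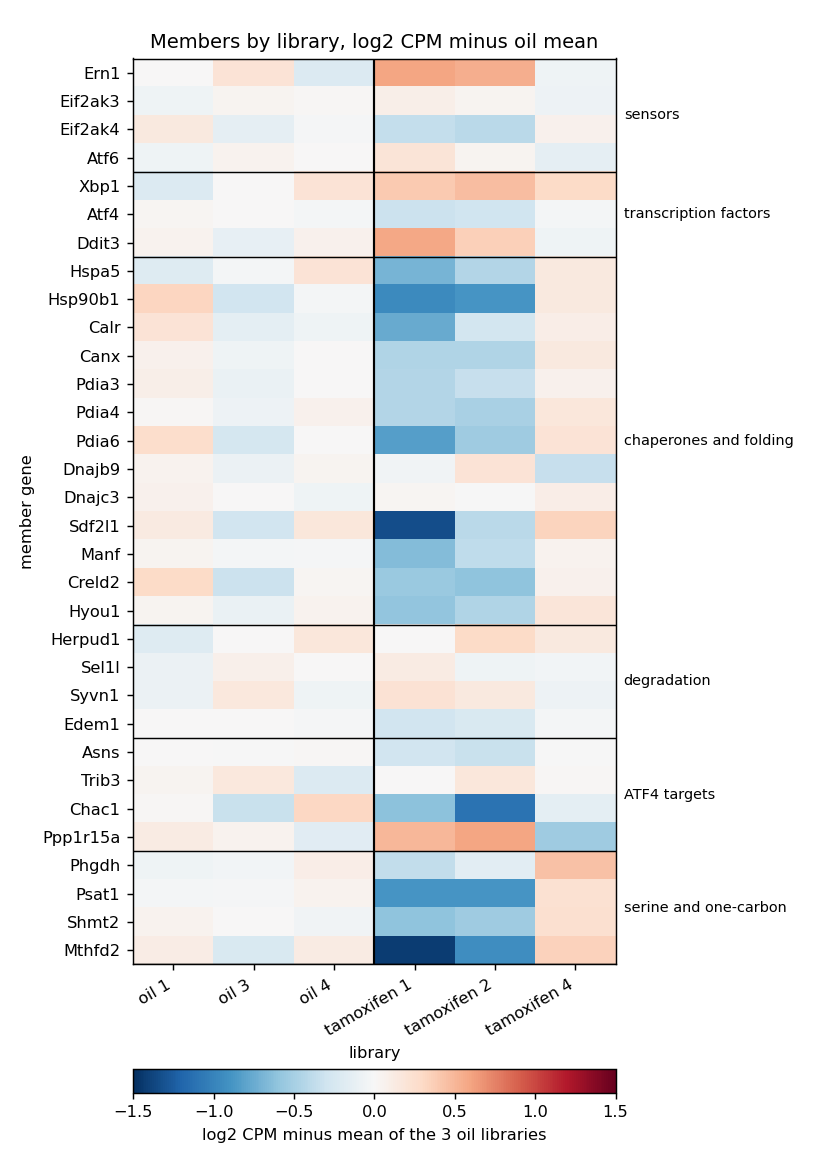
Log2 CPM of each of the 32 members (rows, grouped by role) in each of the 6 libraries (columns), minus the mean of the 3 oil libraries; blue is below and red above that mean. Most chaperones and all 4 serine and one-carbon genes are blue in tamoxifen 1 and 2 and pale or red in tamoxifen 4, and Ern1, Ddit3 and Ppp1r15a show the opposite colors.

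The members did not move together in the 3 tamoxifen libraries. In tamoxifen 1 and in tamoxifen 2, 20 of the 32 members (62.5%) lay below the range of the 3 oil libraries, compared with 39.4% and 39.2% of all genes. In tamoxifen 4, 6 members (18.8%) lay below this range and 11 (34.4%) above it, compared with 30.4% and 31.4% of all genes. The median member differed from the oil mean by -0.36 on the log2 scale in tamoxifen 1, by -0.32 in tamoxifen 2 and by 0.07 in tamoxifen 4. Values are therefore given with tamoxifen 4 and without it. Because that library was set aside with the members' values in view, the fit without it describes tamoxifen 1 and 2 against oil and is not independent evidence for a change. Leaving out any of the other 5 libraries gave 0 members called in edgeR, with 1 member at an unadjusted p below 0.05 in each of these fits. Few genes of any kind were called there: 8 to 16 higher and 0 lower over all genes. An unadjusted edgeR p below 0.05 was found for 1373 to 1659 of all genes in these fits. Without tamoxifen 4, 4 members were called higher and 19 lower in edgeR (71.9% of the members together), where 19.2% of 11851 tested genes were called higher and 17.1% lower, and the members' median log2 fold change was -0.35. A comparison of 2 libraries with 3 rests on the close likeness of tamoxifen 1 and 2, and the part that tamoxifen 4 plays in the difference between the fits was not tested further.

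Of the sensors, Ern1 and Eif2ak4 varied more between libraries than Eif2ak3 and Atf6 did. Ern1, the IRE1 kinase and endonuclease, was at 34.8, 40.2 and 30.1 CPM in oil 1, 3 and 4, in that order, compared with 52.5, 50.5 and 33.3 CPM in tamoxifen 1, 2 and 4. Tamoxifen 1 and 2 lay above every oil library and tamoxifen 4 lay among them, so that the groups overlapped. The log2 fold change was 0.37 ± 0.19 (SE, n = 3 and 3, edgeR adjusted p = 0.295), and 0.56 ± 0.12 without tamoxifen 4 (edgeR adjusted p = 0.00596). Eif2ak4, the amino acid sensor GCN2, was at 95.6, 79.0 and 85.0 CPM in oil and at 67.3, 64.9 and 89.7 CPM in tamoxifen. It was low in tamoxifen 1 and 2 and within the oil range in tamoxifen 4, with a log2 fold change of -0.23 ± 0.14 (edgeR adjusted p = 0.377) and of -0.39 ± 0.09 without tamoxifen 4 (edgeR adjusted p = 0.0101).

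The other two sensors of the endoplasmic reticulum showed little difference. Eif2ak3, which encodes PERK, was at 34.3, 37.1 and 36.6 CPM in oil and at 38.3, 37.1 and 34.0 CPM in tamoxifen. Its groups overlapped, and its log2 fold change was 0.02 ± 0.10 (edgeR adjusted p = 0.927). Atf6, whose product is both sensor and transcription factor, was at 220.4, 237 and 230.1 CPM in oil and at 261, 235 and 208 CPM in tamoxifen. The tamoxifen values spread around the oil values on both sides, with a log2 fold change of 0.03 ± 0.10 (edgeR adjusted p = 0.855). Neither gene passed the test without tamoxifen 4 (edgeR adjusted p = 0.608 for Eif2ak3 and 0.262 for Atf6).

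Among the transcription factors, Xbp1 had the clearest separation of all members. Xbp1, which drives expansion of the secretory pathway, was at 76.4, 87.6 and 100.3 CPM in oil and at 115, 121 and 107 CPM in tamoxifen. All 3 tamoxifen libraries lay above all oil libraries, and the nearest pair was 100.27 CPM in oil 4 and 106.96 CPM in tamoxifen 4. The log2 fold change was 0.37 ± 0.11 (edgeR adjusted p = 0.138), and 0.42 ± 0.11 without tamoxifen 4 (edgeR adjusted p = 0.0123). Its adjusted p in DESeq2 was 0.0592.

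Atf4 and Ddit3 differed from the oil libraries in opposite directions. Atf4, the central factor of the integrated stress response, was at 312, 307 and 300.04 CPM in oil and at 245, 249 and 299.67 CPM in tamoxifen. All tamoxifen values were the lower ones, but tamoxifen 4 and oil 4 were almost equal. The log2 fold change was -0.21 ± 0.10 (edgeR adjusted p = 0.272), and -0.31 ± 0.07 without tamoxifen 4 (edgeR adjusted p = 0.00561). Ddit3, which encodes the pro-apoptotic factor CHOP, was at 25.9, 23.1 and 26.2 CPM in oil and at 37.4, 32.1 and 24.1 CPM in tamoxifen. Tamoxifen 1 and 2 lay above every oil library and tamoxifen 4 within the oil range, with a log2 fold change of 0.31 ± 0.17 (edgeR adjusted p = 0.310) and of 0.47 ± 0.12 without tamoxifen 4 (edgeR adjusted p = 0.011). Of the exon bases of Ddit3, 4.7% also belong to other annotated genes, and the strand setting of the counts is not given in the sources used here.

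**Figure D2:**
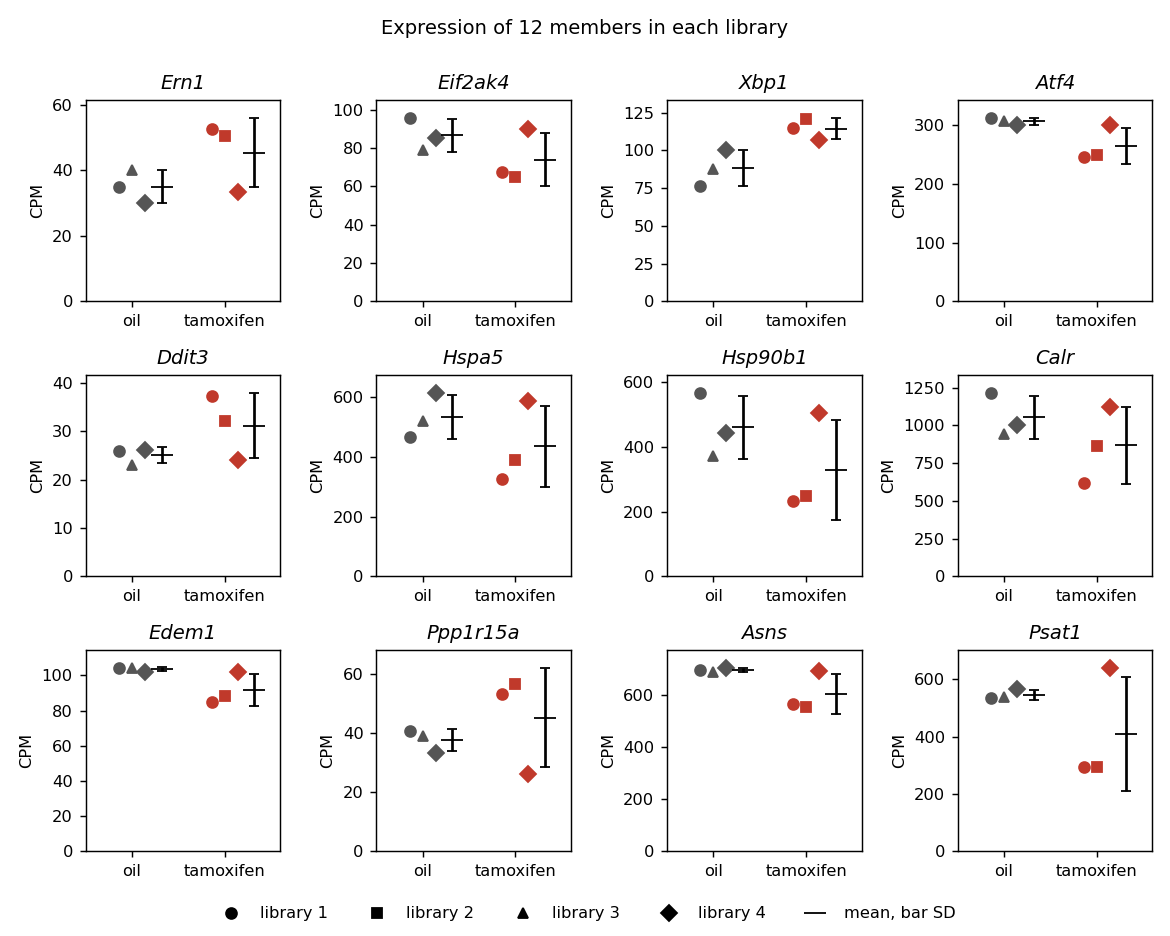
CPM (vertical axis, from 0) of 12 members in the oil (gray) and tamoxifen (red) libraries; symbols mark the library number in the table, and the horizontal line with bars is the mean ± SD of 3 libraries. Tamoxifen 4 (red diamond) lies within the oil range for Ern1, Eif2ak4, Ddit3, Hspa5, Hsp90b1, Calr and Asns, just below it for Atf4 and Edem1, lowest of all 6 points for Ppp1r15a and highest for Psat1, and all red points are above the gray ones for Xbp1.

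The 13 chaperones and folding enzymes had lower values as a group in tamoxifen 1 and 2. Their log2 fold changes over all libraries were negative for 12 and positive for 1, with a median of -0.28 and a range from -0.49 (Hsp90b1) to 0.04 (Dnajc3), and none passed the test (edgeR adjusted p of 0.331 or more). Hspa5, the abundant chaperone BiP that also holds the sensors inactive, was at 467, 521 and 614 CPM in oil and at 327, 391 and 588 CPM in tamoxifen. Tamoxifen 1 and 2 were below every oil library, and tamoxifen 4 was within the oil range. The log2 fold change was -0.29 ± 0.21 (edgeR adjusted p = 0.434), and -0.57 ± 0.12 without tamoxifen 4 (edgeR adjusted p = 0.0048).

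The same arrangement of libraries recurred in most of the group. Of the 13, 11 lay below the oil range in tamoxifen 1 and 11 in tamoxifen 2, but 1 did so in tamoxifen 4, where 6 lay above it. These are 84.6%, 84.6% and 7.69% below and 46.2% above, where 39.4%, 39.2% and 30.4% of all genes lay below and 31.4% above. The median chaperone differed from the oil mean by -0.59 on the log2 scale in tamoxifen 1, by -0.44 in tamoxifen 2 and by 0.15 in tamoxifen 4. Hsp90b1, the endoplasmic reticulum HSP90 known as GRP94, had the most negative log2 fold change of the group over all libraries. It was at 567, 373 and 445 CPM in oil and at 233, 248 and 506 CPM in tamoxifen. The oil libraries themselves spread widely, tamoxifen 1 and 2 were below them all, and the log2 fold change was -0.49 ± 0.30 (edgeR adjusted p = 0.368) or -0.94 ± 0.15 without tamoxifen 4 (edgeR adjusted p = 0.00112). Of its exon bases, 15.7% are shared with other annotated genes.

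Without tamoxifen 4, 11 of the 13 (84.6%) were called lower and 0 higher, where 17.1% of all genes were called lower and 19.2% higher, and the median log2 fold change was -0.51. Calr and Canx, the lectin chaperones calreticulin and calnexin, were at -0.51 ± 0.14 (edgeR adjusted p = 0.0205) and -0.45 ± 0.07 (edgeR adjusted p = 0.00121) in that fit. Calr was at 944 to 1213 CPM in oil and at 616, 864 and 1121 CPM in tamoxifen. Of the disulfide isomerases, Pdia3, Pdia4 and Pdia6 had log2 fold changes of -0.39, -0.46 and -0.69, each called lower. Pdia6 was at 155 to 223 CPM in oil and at 104, 129 and 214 CPM in tamoxifen. Sdf2l1 and Hyou1, partners of BiP, were at -0.81 and -0.52, and Manf and Creld2, secreted or resident proteins of the endoplasmic reticulum induced by its stress, were at -0.51 and -0.60, all called lower. Sdf2l1 reached the lowest value of the group relative to oil, at 16.2 CPM in tamoxifen 1 against 33.3 to 45.9 CPM in oil. It was at 30.8 CPM in tamoxifen 2 and at 51.4 CPM in tamoxifen 4.

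The 2 chaperones that were not called without tamoxifen 4 were both J-domain partners of BiP. Dnajb9, known as ERdj4, was at 25.6, 23.3 and 25.4 CPM in oil and at 23.8, 28.5 and 19.5 CPM in tamoxifen, with a log2 fold change of -0.05 ± 0.15 (edgeR adjusted p = 0.866). It was the 1 chaperone that lay below the oil range in tamoxifen 4. Dnajc3, which also inhibits PERK, stayed between 80.9 and 90.4 CPM in all 6 libraries, with a log2 fold change of 0.04 ± 0.08 (edgeR adjusted p = 0.806).

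The 8 members with an ERSE did not share a single pattern. Over all libraries, 6 had negative and 2 positive log2 fold changes, with a median of -0.29, and 0 were called. Without tamoxifen 4, 6 were called lower (Hspa5, Calr, Hsp90b1, Canx, Pdia6 and Creld2) and 0 higher, where 17.1% of all genes were called lower and 19.2% higher, while Dnajc3 and Syvn1, which carry the same fixed letters, were not called (edgeR adjusted p = 0.935 and 0.171). Chaperones without an ERSE in the window searched were also called lower in that fit, among them Pdia3, Pdia4 and Sdf2l1.

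**Figure D3:**
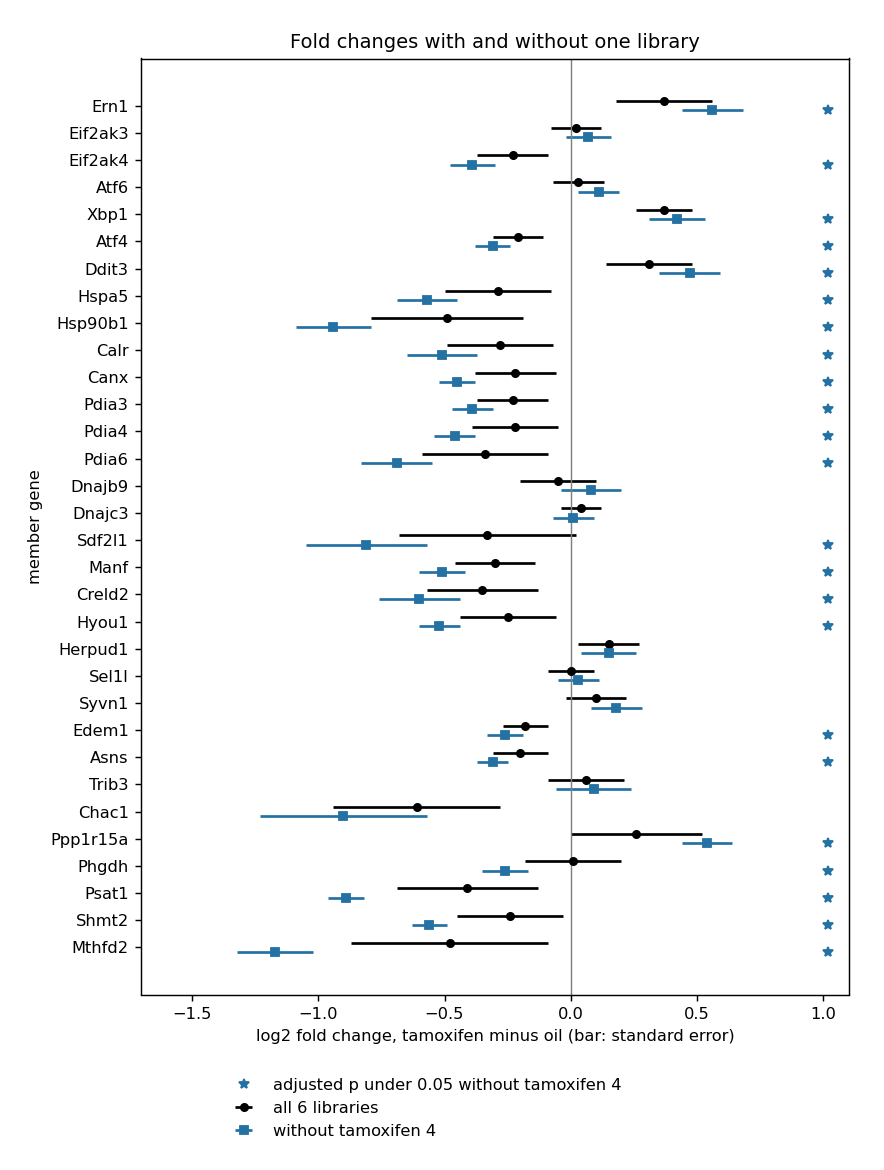
Log2 fold change (tamoxifen minus oil, horizontal axis) ± standard error of each member from all 6 libraries (black) and without tamoxifen 4 (blue); a star marks an edgeR adjusted p below 0.05 in the fit without tamoxifen 4. No member passes in the fit to all libraries, and 23 carry a star, 19 of them to the left of 0 and 4 to the right.

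The degradation genes differed less. Herpud1, an adaptor of the ubiquitin ligase complex, was at 114 to 146 CPM in oil and 130.4 to 158 CPM in tamoxifen (log2 fold change 0.15 ± 0.12, edgeR adjusted p = 0.483). Sel1l and Syvn1, the scaffold and the ligase HRD1 of that complex, had log2 fold changes of 0.00 ± 0.09 and 0.10 ± 0.12 (edgeR adjusted p = 0.985 and 0.642). None of these 3 was called without tamoxifen 4. Edem1, a lectin that directs misfolded glycoproteins to degradation, was at 104, 104 and 101.66 CPM in its oil libraries and at 84.7, 88.4 and 101.55 CPM in tamoxifen. Its groups did not overlap, but tamoxifen 4 and the lowest oil library were separated by a small fraction of 1 CPM. Its log2 fold change was -0.18 ± 0.09 (edgeR adjusted p = 0.315), and -0.26 ± 0.07 without tamoxifen 4 (edgeR adjusted p = 0.0196).

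The further ATF4 targets were divided. Asns, asparagine synthetase, was at 694, 688 and 702 CPM in oil and at 566, 552 and 691 CPM in tamoxifen. The oil libraries were within a narrow band that held tamoxifen 4 and lay above tamoxifen 1 and 2, with a log2 fold change of -0.20 ± 0.11 (edgeR adjusted p = 0.305) and of -0.31 ± 0.06 without tamoxifen 4 (edgeR adjusted p = 0.00473). Ppp1r15a, the phosphatase subunit GADD34 that reverses eIF2 phosphorylation, was at 40.7, 38.9 and 33.3 CPM in oil and at 53.1, 56.4 and 26.0 CPM in tamoxifen. Here tamoxifen 1 and 2 were above every oil library and tamoxifen 4 below every one. The log2 fold change was 0.26 ± 0.26 (edgeR adjusted p = 0.572), and 0.54 ± 0.10 without tamoxifen 4 (edgeR adjusted p = 0.00326).

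Chac1 and Trib3 were the least expressed of these targets. Chac1, which degrades glutathione, was at 3.49, 2.71 and 4.27 CPM in oil and at 2.20, 1.54 and 3.09 CPM in tamoxifen. Tamoxifen 1 and 2 lay below the oil libraries, and the log2 fold change of -0.61 ± 0.33 was the most negative of all members, yet it did not pass the test with tamoxifen 4 (edgeR adjusted p = 0.318) or without it (-0.90 ± 0.33, edgeR adjusted p = 0.0595). Trib3, a pseudokinase that restrains ATF4 and CHOP, was at 12.5 to 16.0 CPM in oil and 14.4 to 16.2 CPM in tamoxifen (log2 fold change 0.06 ± 0.15, edgeR adjusted p = 0.826).

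The serine and one-carbon enzymes, which ATF4 is known to activate, showed the sharpest contrast between tamoxifen libraries. All 4 lay below the oil range in tamoxifen 1 and in tamoxifen 2, and all 4 lay above it in tamoxifen 4, where 39.4% and 39.2% of all genes lay below it in tamoxifen 1 and 2 and 31.4% above it in tamoxifen 4. Psat1, of serine synthesis, was at 533, 539.5 and 565 CPM in oil and at 295, 295 and 638 CPM in tamoxifen. Mthfd2, a mitochondrial folate enzyme, was at 95.9, 75.6 and 96.5 CPM in oil and at 33.1, 46.5 and 112 CPM in tamoxifen. The log2 fold changes over all libraries were -0.41 ± 0.28 for Psat1 and -0.48 ± 0.39 for Mthfd2, with edgeR adjusted p of 0.411 and 0.484.

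Shmt2, the mitochondrial serine hydroxymethyltransferase, and Phgdh, the first enzyme of serine synthesis, followed the same order. Shmt2 was at 395 to 423 CPM in oil and at 269.8, 283 and 482 CPM in tamoxifen. Phgdh was at 151 to 169 CPM in oil and at 122, 141 and 214 CPM in tamoxifen. For Phgdh the low and the high libraries cancelled in the mean, with a log2 fold change of 0.01 ± 0.19 (edgeR adjusted p = 0.974), and the sign turned to -0.26 ± 0.09 without tamoxifen 4 (edgeR adjusted p = 0.0438). All 4 enzymes were called lower in that fit, where 17.1% of all genes were called lower and 19.2% higher. The log2 fold changes were -0.89 for Psat1, -0.56 for Shmt2 and -1.17 for Mthfd2. The median of the 4 differed from the oil mean by -0.74 and -0.71 on the log2 scale in tamoxifen 1 and 2 and by 0.29 in tamoxifen 4.

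**Figure D4:**
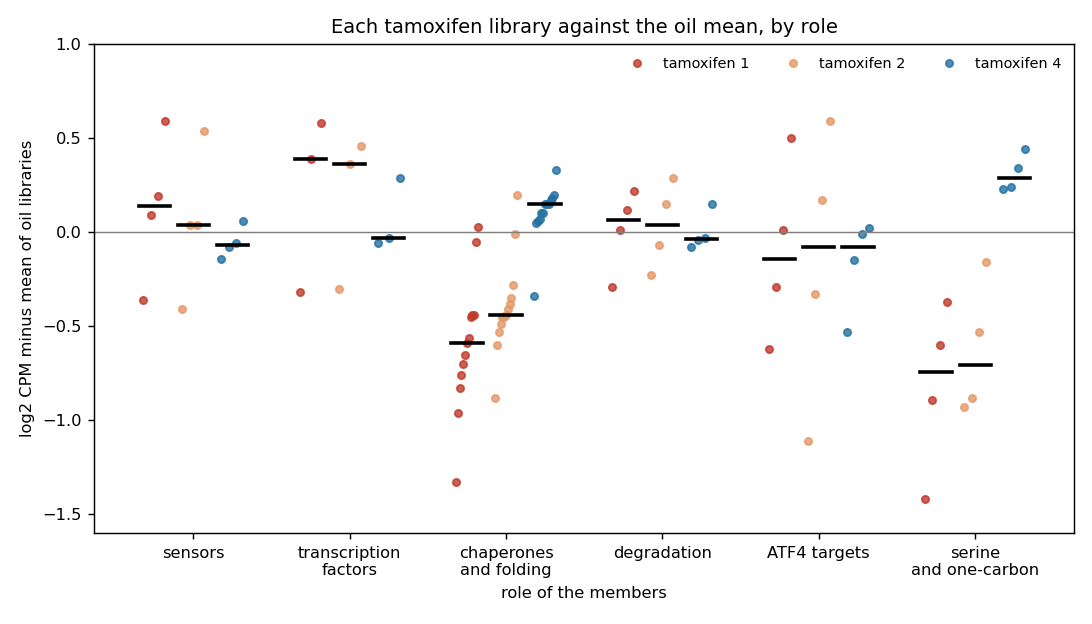
Log2 CPM minus the mean of the oil libraries (vertical axis) for each member in tamoxifen 1 (red), tamoxifen 2 (orange) and tamoxifen 4 (blue), by role; each point is 1 member and the black line is the median of the role. For chaperones the medians are -0.59, -0.44 and 0.15, and for serine and one-carbon genes -0.74, -0.71 and 0.29, whereas for degradation genes they are 0.06, 0.04 and -0.03.

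Levels in oil were also compared between members per kilobase of exon. Calr was highest at 365 ± 49.3 CPM per kb (SD, n = 3), followed by Asns at 254 ± 2.6 and Pdia3 at 183 ± 12 CPM per kb, and the oil ranges of these neighbors were apart. Canx, Shmt2, Atf4, Psat1, Hspa5 and Hsp90b1 came next, between 135 and 115 CPM per kb, and each overlapped with its neighbor in this order. The sensors lay lower, with Atf6 at 24.8 ± 0.909, Eif2ak4 at 11.6 ± 1.12, Eif2ak3 at 5.98 ± 0.247 and Ern1 at 4.29 ± 0.62 CPM per kb. The lowest member was Chac1 at 2.13 ± 0.475 CPM per kb, and its range was apart from that of Ern1. Ddit3, at 14.7 ± 1.01 CPM per kb, was below its partner Atf4 at 130 ± 2.45 CPM per kb.

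Other genes of the same pathways were listed in the same way, and 89 of 102 were tested. Of these, 2 were called higher and 0 lower, 16 had an unadjusted edgeR p below 0.05, and the median log2 fold change was -0.01. The share of all genes called higher was 1.75%, and 18.0% of the 89 had an unadjusted edgeR p below 0.05 where 20.6% of all genes did. Cebpb, a partner of CHOP and ATF4, was at 9.45, 7.37 and 9.05 CPM in oil and at 14.3, 14.3 and 15.9 CPM in tamoxifen, so that tamoxifen 4 was the highest library. It rose by a log2 fold change of 0.78 ± 0.16 (edgeR adjusted p = 0.0493). Ube2j1, the ubiquitin-conjugating enzyme of endoplasmic reticulum degradation, was at 11.5, 10.3 and 8.13 CPM in oil and at 24.5, 24.9 and 16.8 CPM in tamoxifen, and rose by 1.15 ± 0.20 (edgeR adjusted p = 0.0399). Both calls were lost when any library other than tamoxifen 4 was left out, since 0 of the 89 were then called higher. Most calls of other genes were lost too, with 8 to 16 of all genes called higher in those fits against 203 with all libraries.

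The genes next in order of p did not pass in edgeR. In the list of the integrated stress response, of which 31 were tested, these were Ddit4, an inhibitor of mTORC1 (log2 fold change 1.66, edgeR adjusted p = 0.0716), and the amino acid transporter genes Slc3a2 (0.60, edgeR adjusted p = 0.0746) and Slc38a2 (-0.32, edgeR adjusted p = 0.107). In the list of folding and export, of which 35 were tested, they were Creb3l2 (-0.48, edgeR adjusted p = 0.0598), Fkbp2 (-0.60, edgeR adjusted p = 0.0827) and Kdelr3 (0.76, edgeR adjusted p = 0.0852). In the list of degradation, of which 23 were tested, they were Selenos (0.35, edgeR adjusted p = 0.142), Rnf5 (-0.39, edgeR adjusted p = 0.197) and Ddrgk1 (0.29, edgeR adjusted p = 0.227). The DESeq2 Wald test, which called 8.13% of all genes, did call some of these genes. Its adjusted p was 0.000194 for Ddit4, 0.00308 for Slc3a2 and 0.0187 for Slc38a2. In DESeq2 the adjusted p was 0.00316 for Creb3l2, 0.00876 for Fkbp2 and 0.00865 for Kdelr3. Selenos, Rnf5 and Ddrgk1 did not pass there (DESeq2 adjusted p = 0.0712, 0.132 and 0.206).

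In the integrated stress response list, more genes lay below the oil range than above it in tamoxifen 1 and 2, and more above than below in tamoxifen 4. Of its 31 tested genes, 21 (67.7%) lay below the oil range in tamoxifen 1 and 19 (61.3%) in tamoxifen 2, where 39.4% and 39.2% of all genes did, while 22 (71.0%) lay above it in tamoxifen 4, where 31.4% of all genes did. Without tamoxifen 4, 3 were called higher and 16 lower, against 19.2% and 17.1% of all genes. For the folding and export list the counts in that fit were 4 higher and 6 lower, and for the degradation list 5 higher and 1 lower. Over the 89 genes, 12 were then called higher and 23 lower, together 39.3%, where 19.2% of all genes were called higher and 17.1% lower. For the folding and export and the degradation lists, 28.6% and 26.1% were called.

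Markers of other cell types were read in the same libraries, since a secretory cell such as a plasma cell may carry many chaperone transcripts. The 7 plasma cell markers found in the table summed to 0.257 to 0.563 CPM in oil and 1.15 to 2.48 CPM in tamoxifen, with a highest single value of 1.83 CPM. B cell markers summed to at most 0.878 CPM and neutrophil markers to at most 0.413 CPM. The 9 markers of mast cells and basophils summed to 1321 to 1499 CPM in oil and to 2442, 4797 and 1918 CPM in tamoxifen 1, 2 and 4, and 2 of them were called higher. Ms4a2 made up most of the oil sum, at 862 to 917 CPM, and differed little between groups (log2 fold change -0.04, edgeR adjusted p = 0.807). Cma1 and Cpa3 had means of 269 and 132 CPM in oil and of 1201 and 571 CPM in tamoxifen. Macrophage markers summed to 4.85 to 8.55 CPM in oil and to 17.3, 22.2 and 9.28 CPM in tamoxifen. Of 7 tested, 1 was called higher, Hmox1, with means of 1.18 CPM in oil and 6.85 CPM in tamoxifen. Hmox1 was also the largest single part of the tamoxifen sums, at 8.23, 9.56 and 2.76 CPM in tamoxifen 1, 2 and 4. Every tamoxifen value lay above the oil values for Hmox1, Vcam1 and Cd68, whereas the groups overlapped for C1qa, C1qb, C1qc and Csf1r.

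In the list of T and NK cells, Nkg7 alone made up the tamoxifen sums of 20.0, 56.4 and 7.62 CPM, and it was called higher. The list summed to 1.13 to 2.57 CPM in oil. Of its 8 markers, 5 were at 0 in all libraries, and Cd3d and Cd4 had counts in oil only. Cd34, a marker of immature cells, was at 8.43 to 11.7 CPM in oil and at 113, 134 and 41.8 CPM in tamoxifen (log2 fold change 3.27, edgeR adjusted p = 0.0232). In the mast cell and macrophage sums, in Nkg7 and in Cd34, tamoxifen 4 lay between the oil libraries and tamoxifen 1 and 2. Single markers did not all keep this order. Tamoxifen 4 lay above tamoxifen 1 for Mcpt8 and Tpsb2, and below every oil library for Ms4a2 and Csf1r. The sum of 6 erythroid markers also set tamoxifen 4 apart from tamoxifen 1 and 2: it was 3176 to 5438 CPM in oil, 6632 and 6976 CPM in tamoxifen 1 and 2, above every oil library, and 2546 CPM in tamoxifen 4, below every one. Globin genes made up most of this sum, with Hba-a1, Hba-a2 and Hbb-bs at 2294, 2258 and 1546 CPM in tamoxifen 1. Slc4a1 alone did not keep the order, at 45.2 to 168 CPM in oil and 165, 91 and 27 CPM in tamoxifen 1, 2 and 4. In edgeR 0 of these 6 markers were called, and 0 had an unadjusted p below 0.05. The part of the cell composition in the members' values was not tested, and in bulk RNA fewer cells of a type and less RNA per cell cannot be told apart.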

How the data were processed

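RNA was extracted with Trizol from sorted AE9a cells, and libraries were sequenced as paired-end reads. The authors aligned reads with STAR and used DESeq2, with the build mm10 per the labels, and deposited expected counts per gene symbol for 6 libraries. The counter, the annotation and the strand setting are not given in the sources used here. All deposited values were multiples of 0.5, and they were rounded. Counts were tested in R 4.3.3 with edgeR 4.0.16 (filterByExpr by group, TMM, quasi-likelihood F test, no block) over 11614 genes with Benjamini-Hochberg adjustment. Alternatives included DESeq2 1.42.0, limma-voom (limma 3.58.1), other scalings and filters, and leaving out each library. Differences from the oil mean used log2 CPM with a prior count of 2. Standard errors came from the F statistics. The scripts were tested on simulated data.

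Members and lists were chosen with earlier results of these data known. Values in every library are given for the sensors, the 3 transcription factors, Hspa5 and each member with an unadjusted p below 0.05 or with ranges apart; library values of the remaining members were chosen after their values were seen. Of the other pathway genes, those called and otherwise the 3 with the smallest p of each list are named; 1 listed gene was not found, and 26 rows held a date in place of a symbol. Nothing beyond separate mice shows how independent the replicates were, and p-values measure the spread between these samples. No pair was a repeat (chi-square per degree of freedom of 7.14 or more). The titles number the libraries 1, 2 and 4 (oil) and 1, 3 and 4 (tamoxifen), and the columns 1, 3 and 4 (oil) and 1, 2 and 4 (tamoxifen); oil 3 and tamoxifen 2 were used by group. Exon lengths are those of GENCODE M21 on GRCm38. One erythroid marker is not reported here.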

Additional observations from a re-analysis of the deposited data

How the results depend on the processing

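Of 448 comparisons of a member's log2 fold change with an alternative (14 for each member), 413 kept the direction and the side of the threshold and 13 turned the sign, in 6 members. Without tamoxifen 4, 23 members passed the threshold newly, of which 1 (Phgdh) also turned its sign, and 0 did so under any other alternative; the cause was not tested. The sign turned for Sel1l with no low-count filter (-0.00433) and with unrounded counts (-0.00229), and for Phgdh in limma-voom (-0.0271). With each library left out in turn the log2 fold change ranged from -0.0184 to 0.0671 for Eif2ak3, -0.0476 to 0.11 for Atf6, -0.19 to 0.0797 for Dnajb9, -0.0572 to 0.0434 for Sel1l, -0.0393 to 0.14 for Trib3 and -0.26 to 0.17 for Phgdh, and the counts of members called ranged from 0 to 4 higher and 0 to 19 lower. Over all genes, 203 were called higher and 31 lower; DESeq2 called 713 and 231, limma-voom 48 and 6, no filter 372 and 61, a mean count of at least 50 gave 120 and 17, and leaving out 1 library gave 8 to 2278 and 0 to 2024, where the fits with 0 lower genes had 1373 to 1659 genes at an unadjusted edgeR p below 0.05. Of the other pathway genes, 2 were called higher and 0 lower (16 at an unadjusted edgeR p below 0.05); DESeq2 called 5 and 3, limma-voom 0 higher, no filter 4 and 1, the stricter filter 1 higher, and leaving out 1 library 0 to 12 and 0 to 23. The members' median of -0.22 ranged from -0.10 to -0.35. The numbers 1 and 4 occur in both groups, and samples with the same number deviated with correlations of -0.13 and 0.06. These correlations gave no sign of pairing but cannot exclude it. A replicate block, with 1 residual degree of freedom, called 215 genes higher and 26 lower, 0 members in either direction (3 at an unadjusted edgeR p below 0.05) and 2 other pathway genes higher, with a members' median of -0.18. The lowest count of a member was 26.5, for Chac1 in tamoxifen 2.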
